A study of Mus musculus with 10 samples.

Results

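The 10 genes described here belong to the actin cytoskeleton and to the set of genes controlled by serum response factor (SRF). They were the striated muscle actins Acta1 and Actc1, the smooth muscle actins Acta2 and Actg2, the smooth muscle contractile genes Tagln, Cnn1 and Myl9, the tropomyosins Tpm1 and Tpm2, and Srf itself. They were found by the gene name that the array gives each non-control probe, which yielded 16 of 55681 probes. A filter on dim probes left 14 of these probes and 9 of the 10 genes, among 13138 genes tested, and the gene that did not pass was Cnn1. C2C12 myoblasts, an established mouse line of muscle precursor cells, received either a mimic of miR-27a-3p or a scrambled sequence. Each was used at 150 nM with the same lipid reagent, in cells kept in serum-rich medium, and RNA was taken after 72 hours at a stated transfection efficiency of about 60%. Cells that took up no mimic were therefore measured together with cells that did. The files numbered 6 for the mimic and 4 for the scrambled sequence, all 1-colour Agilent arrays.

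Actins polymerise into the thin filaments of the sarcomere and of stress fibres. SRF binds a short DNA element, the CArG box, in front of many contractile and cytoskeletal genes, together with myocardin-family or ETS-family partners. The myocardin-related partners are held back by unpolymerised actin, so that the state of the cytoskeleton feeds back on the transcription of its own genes. In differentiating myoblasts Actc1 and Acta1 accumulate as the sarcomere is built, while Acta2, Tagln and Cnn1 are best known from smooth muscle and are also found in myoblasts and fibroblasts.

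The mature sequence of the transfected agent's natural counterpart is printed first, since its seed (bases 2 to 8, in capitals) is the part by which a microRNA pairs with its targets. It is taken from the RefSeq miRNA table of GRCm38.p6 (chr8:84208727-84208747, plus strand).
mmu-miR-27a-3p: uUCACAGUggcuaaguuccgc

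RefSeq promoters of GRCm38.p6 (250 bases before to 50 after the transcription start) were found for 8 of the 10 genes, the others being Actg2 and Tagln. The CArG box, 10 letters long and searched on both strands, was matched exactly in 4 of the 8, namely Acta1, Actc1, Myl9 and Srf. It was matched in 5 of the 8 when 1 of the 6 inner letters, those that must be A or T, was allowed to differ and the CC and GG at the ends were kept, Acta2 being the addition, while Tpm1, Tpm2 and Cnn1 held no such match in this window. Of all 32851 promoters of the same length in the table, 1.63% held an exact match and 9.98% a match with at most 1 other inner letter. A second muscle element, CATTCC on either strand, was present in Acta1, Acta2 and Tpm1, against 14.66% of all promoters. The 250 bases before the start are shown for the 5 genes with a CArG match, because these include both genes that changed most and genes that were not called. Capitals mark the matches, exact or with 1 other inner letter, which describe the letters and do not show a bound site.
Acta1 (chr8:123894776-123895025, minus strand): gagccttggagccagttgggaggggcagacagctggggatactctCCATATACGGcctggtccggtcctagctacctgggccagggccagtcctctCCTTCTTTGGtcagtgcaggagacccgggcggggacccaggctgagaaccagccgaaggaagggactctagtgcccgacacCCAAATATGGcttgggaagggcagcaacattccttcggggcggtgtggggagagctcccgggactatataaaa
Actc1 (chr2:114052876-114053125, minus strand): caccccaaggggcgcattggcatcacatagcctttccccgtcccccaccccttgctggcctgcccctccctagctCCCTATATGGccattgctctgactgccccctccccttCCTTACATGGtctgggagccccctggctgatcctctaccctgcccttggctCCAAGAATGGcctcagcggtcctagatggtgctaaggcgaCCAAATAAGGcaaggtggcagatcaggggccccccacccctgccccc
Acta2 (chr19:34255374-34255623, minus strand): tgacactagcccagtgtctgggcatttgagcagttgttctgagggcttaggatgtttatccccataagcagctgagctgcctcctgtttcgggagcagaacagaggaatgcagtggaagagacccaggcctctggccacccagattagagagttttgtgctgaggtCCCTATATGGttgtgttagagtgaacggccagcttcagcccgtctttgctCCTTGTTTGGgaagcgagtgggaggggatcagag
Myl9 (chr2:156775214-156775463, plus strand): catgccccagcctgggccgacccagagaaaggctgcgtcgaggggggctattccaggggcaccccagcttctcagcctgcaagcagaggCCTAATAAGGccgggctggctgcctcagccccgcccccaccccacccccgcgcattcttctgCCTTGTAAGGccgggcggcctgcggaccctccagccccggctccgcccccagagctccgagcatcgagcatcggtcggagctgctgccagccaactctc
Srf (chr17:46556163-46556412, minus strand): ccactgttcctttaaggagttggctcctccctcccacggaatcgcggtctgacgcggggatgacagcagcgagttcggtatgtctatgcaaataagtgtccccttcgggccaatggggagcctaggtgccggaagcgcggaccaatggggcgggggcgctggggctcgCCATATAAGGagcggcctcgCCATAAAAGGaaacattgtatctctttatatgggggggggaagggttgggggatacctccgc

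The file headers place the 10 files on 5 array positions of 1 slide, each scanned 2 times. The files of a shared position had 24 to 81 spots marked non-uniform in common, while files of different positions shared 0 or 1. The labels call the 6 and 4 samples separate transfections, but the scans of a position were averaged here, which left 3 mimic arrays and 2 scrambled arrays as replicates. P-values therefore measure the spread between these few arrays, which may be technical. Each file held 62976 spots, of which 59305 were not controls, and 27% to 35.3% of those were well above background. The scrambled arrays differed from each other by an SD of 0.56 over genes on the log2 scale, and pairs of mimic arrays by 0.32 to 0.44. Scrambled array 1 differed from mimic arrays 1, 2 and 3 by 0.50, 0.54 and 0.61, and scrambled array 2 by 0.73, 0.75 and 0.72. Scrambled array 1 was thus nearer to mimic arrays 1 and 2 than to scrambled array 2. The myoblast markers Myod1, Des and Cdh15 were above background in all 10 files, Myf5 in 1 mimic file and Pax7 in none. Levels below are log2 signals of a probe relative to the 75th percentile of its array over 13029 probes well above background in all files. A level of 0 is that percentile, and levels of different genes' probes are not comparable with each other.

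Both striated muscle actins fell in the cells given the mimic. Acta1, the chief actin of adult skeletal muscle, stood at 0.66, 0.66 and 0.26 on the mimic arrays, against 1.79 and 2.22 on the scrambled arrays. Every mimic array lay more than 1 log2 unit below the lower scrambled array. Its difference was -1.47 ± 0.21 (log2, mimic minus scrambled, SE), which is 2.78-fold lower in mimic cells, with an adjusted p of 0.020 and a 95% confidence interval of -1.99 to -0.96. Here and below the test is limma's moderated test with Benjamini-Hochberg adjustment over all genes, a call requires an adjusted p under 0.05, and intervals are not adjusted. Actc1, the actin of heart and of developing skeletal muscle, measured 2.14, 1.88 and 1.81 on the mimic arrays, compared with 3.30 and 3.63 on the scrambled arrays. Again the groups were far apart, and the arrays of a group differed by at most 0.33. The difference for Actc1 was -1.52 ± 0.18, or 2.88-fold lower in mimic cells (adjusted p = 0.012, interval -1.97 to -1.08). The Acta1 probe, A_51_P246854, is printed from the scanner files, which place it at chr8:126416197-126416256 (mm9, minus strand), because isoforms of actin have closely similar coding sequences. Whether a probe of one isoform also captures RNA of another was not tested.
Acta1 probe: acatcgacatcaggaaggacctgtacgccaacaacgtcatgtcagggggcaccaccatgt

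**Figure D1:**
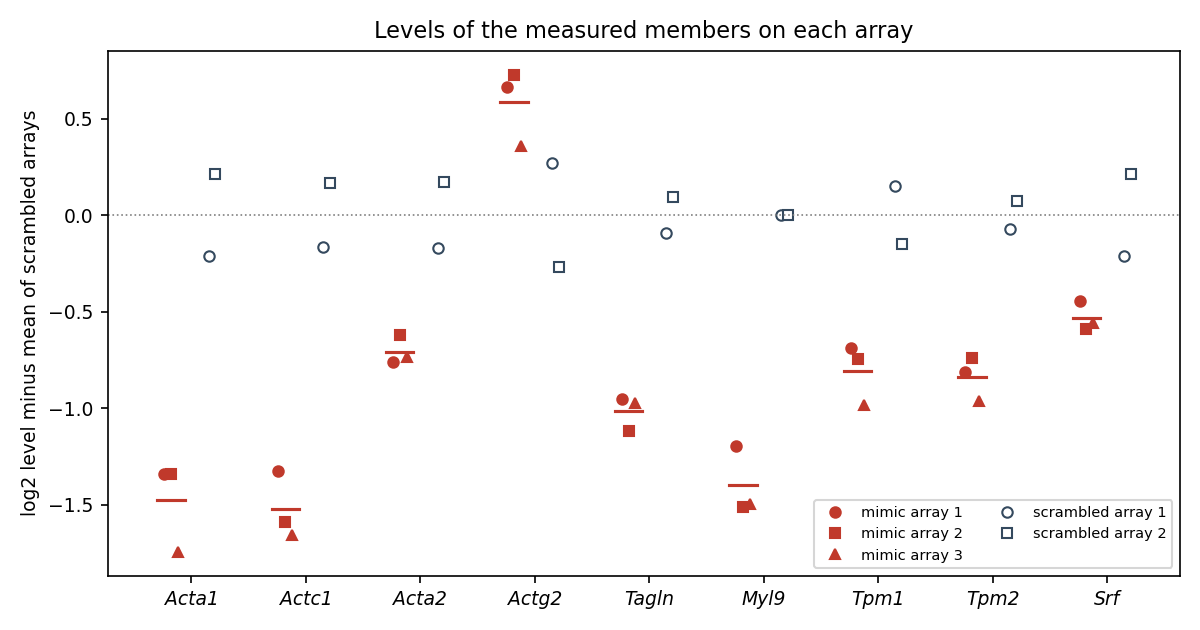
Log2 level of each of the 9 measured genes on each array, minus the mean of its scrambled arrays (y axis), with mimic arrays as filled symbols on the left of each gene, scrambled arrays as open symbols on the right, and a bar at the mimic mean. In 8 genes all 3 mimic arrays lie below both scrambled arrays, and in Actg2 all 3 lie above them.

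The 2 smooth muscle actins did not pass the test, and their estimates had opposite signs. Acta2, the vascular smooth muscle actin that myofibroblasts and proliferating myoblasts also make, gave 2.67, 2.81 and 2.69 on the mimic arrays, against 3.26 and 3.60 on the scrambled arrays. The groups did not overlap, and the mimic arrays lay within 0.14 of each other. The difference was -0.71 ± 0.16 with an adjusted p of 0.067 and an interval of -1.10 to -0.31. Its probe, A_52_P420504 (chr19:34316060-34316119, mm9), is spotted 10 times on the array, and the spots were averaged. Actg2, the enteric smooth muscle actin, was the 1 gene of the 9 with a positive estimate: -0.93, -0.86 and -1.23 on the mimic arrays, compared with -1.32 and -1.86 on the scrambled arrays. The groups were apart, but the lowest mimic array and the higher scrambled array were only a little apart. The difference for Actg2 was 0.58 ± 0.22, with an adjusted p of 0.172 and an interval of 0.05 to 1.12. Acta2 would be called with a normexp background correction (adjusted p = 0.049), with limma's trended and robust variance (0.040), or with all files, scan as a block and position as a random block (0.0081). Without scrambled array 1, which left 1 scrambled array, the difference of Actg2 was 0.85. With the 10 files as separate arrays, which counts repeat scans as replicates, Actg2 was called higher (limma adjusted p = 0.017).

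Set against each other on the same arrays, the changes of striated and smooth muscle actins were unequal. The mean of Acta1 and Actc1 minus the mean of Acta2 and Actg2, centred on the scrambled arrays, was -1.28, -1.52 and -1.51 on the mimic arrays, against -0.24 and 0.24 on the scrambled arrays. All mimic arrays thus lay more than 1 unit below the lower scrambled array. The change of the striated pair minus that of the smooth pair was -1.44, with a pooled SD of 0.22 between arrays of a group. The 6 pairs of actins were also compared singly. The changes of Acta1 and Actc1 differed by 0.05 (exact two-sided permutation test over arrays, p = 0.9). The change of Acta1 minus that of Acta2 was -0.77, that of Acta1 minus Actg2 was -2.06, that of Actc1 minus Acta2 was -0.82, and that of Actc1 minus Actg2 was -2.11. Acta2 and Actg2 also differed, by -1.29. Each of these 5 differences separated the groups without overlap and had an exact p of 0.1 (0.12 after adjustment over the 6 pairs), which is the smallest that 10 splits of 5 arrays can give, so none could pass 0.05.

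Of the other smooth muscle contractile genes, Myl9 and Tagln fell. Myl9, the regulatory light chain of smooth muscle and non-muscle myosin, had levels of -1.10, -1.42 and -1.40 on the mimic arrays, against 0.09 and 0.09 on the scrambled arrays. The scrambled arrays were almost the same and every mimic array was lower by more than 1 unit. Its difference was -1.40 ± 0.16, or 2.64-fold lower in mimic cells (adjusted p = 0.012; probe A_51_P308298, chr2:156607301-156607360, mm9). For Tagln, which encodes the actin-bundling protein transgelin, readings were -3.16, -3.33 and -3.19 on the mimic arrays, compared with -2.31 and -2.12 on the scrambled arrays. Arrays of a group differed by at most 0.19, and the groups did not overlap. Tagln differed by -1.01 ± 0.15, or 2.02-fold lower in mimic cells (adjusted p = 0.021; probe A_51_P450527, chr9:45738097-45738156, mm9). Cnn1, which encodes the actin-binding protein calponin 1, was well above background in 0 of 6 mimic files and 0 of 4 scrambled files. No difference was computed for it, and a change below the background cannot be seen on these arrays. Of 6 listed smooth muscle markers, Myh11 and Kcnmb1 were above background in no file, Lmod1 in 1 mimic file, and Smtn and Aoc3 in all files. Synpo2, in 6 mimic files and 1 scrambled file, had a difference of 1.33 ± 0.34 and was not called (adjusted p = 0.086). Their sum on the linear scale, relative to the 75th percentile, was 1.86, 2.21 and 1.87 on the mimic arrays, against 1.98 and 1.72 on the scrambled arrays. Nearly all of that sum is the signal of Smtn, so it says little of the other 5.

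Tropomyosins, which lie along the actin filament and set its access to myosin, were lower on all mimic arrays by their brightest probes, and 1 of the pair was called. Tpm2, the beta chain, measured -0.25, -0.18 and -0.41 on the mimic arrays, compared with 0.48 and 0.63 on the scrambled arrays. All scrambled arrays were above 0 and all mimic arrays below it. The difference was -0.84 ± 0.15 (adjusted p = 0.037). Tpm1, the alpha chain, gave 1.37, 1.31 and 1.08 on the mimic arrays, against 2.21 and 1.91 on the scrambled arrays. The groups did not overlap, yet the difference of -0.81 ± 0.17 did not pass (adjusted p = 0.058, interval -1.23 to -0.38). Tpm1 passed when probes had to be above background in all files (adjusted p = 0.044), with the trended and robust variance (0.038) and with position as a random block (0.0082). Tpm2 did not pass in 7 of 18 other ways of processing. Among them were the first scans alone (adjusted p = 0.063), scaling over all probes (0.055) and no filter on dim probes (0.353). With 1 array left out, the Tpm2 difference was -0.91 to -0.77.

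Tropomyosin genes make many transcripts by alternative exons, and the array carries 5 probes for Tpm1 and 2 for Tpm2, all on the minus strand in mm9 (chromosome 9 for Tpm1 and 4 for Tpm2). They were tested in a fit over 16722 probes, in which 2.19% were called lower and 2.39% higher. The second Tpm1 probe, A_55_P2187043, shares 46 of its 60 bases with the brightest, A_55_P2187038, and is no independent measurement. It gave 0.71, 0.65 and 0.57 on the mimic arrays, compared with 1.40 and 1.36 on the scrambled arrays, a difference of -0.73 ± 0.14 (adjusted p = 0.045). Its call was lost in 9 of 18 other ways of processing. Among them were the first scans alone (adjusted p = 0.053) and the second scans alone (0.069). The brightest probe itself was not called in this fit (adjusted p = 0.064). Another Tpm1 probe, A_55_P2187053, which the array assigns to other transcripts of the gene, had -2.59, -2.50 and -2.45 on the mimic arrays, against -2.52 and -2.03 on the scrambled arrays. Here the groups overlapped, and the difference was -0.24 ± 0.19 (adjusted p = 0.449). The groups overlapped too for A_55_P2032192, with -0.38, -0.50 and -0.19 on the mimic arrays, compared with -0.38 and 0.51 on the scrambled arrays (difference -0.42 ± 0.28, adjusted p = 0.388). The last Tpm1 probe, A_55_P2078680, was above background in no file. Between A_55_P2187043 and A_55_P2187053 the change differed by -0.49 without overlap (exact permutation p = 0.1, 0.4 after adjustment over the 8 pairs of probes of 1 gene), again the smallest p possible. The Tpm2 probes lie apart and gave like estimates, -0.84 ± 0.15 for A_55_P2121408 and -0.75 ± 0.22 for A_52_P315976, although the adjusted p of A_52_P315976 was 0.116. Their sequences are shown as the scanner files give them, to let the stretches be told apart.
Tpm2 probe A_55_P2121408 (chr4:43532262-43532321, mm9, minus strand): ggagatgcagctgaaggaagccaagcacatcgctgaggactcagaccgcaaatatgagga
Tpm2 probe A_52_P315976 (chr4:43531276-43531335, mm9, minus strand): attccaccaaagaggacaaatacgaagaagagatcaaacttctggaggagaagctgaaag

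**Figure D2:**
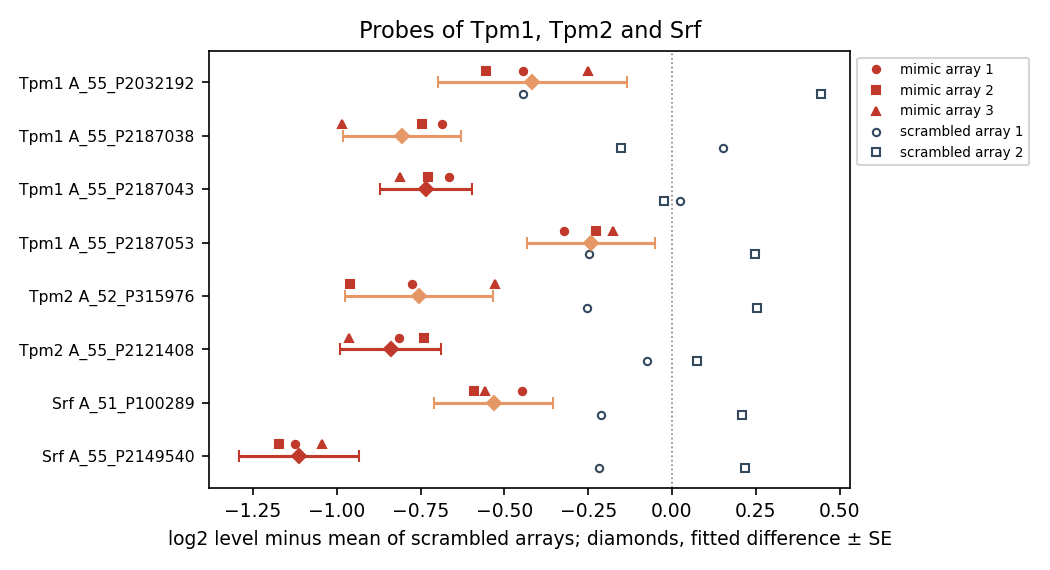
Log2 level minus the mean of the scrambled arrays (x axis) for the 8 measured probes of Tpm1, Tpm2 and Srf, with mimic arrays as filled symbols above and scrambled arrays as open symbols below; diamonds and bars are the fitted difference ± SE, dark red where the adjusted p was under 0.05. The Tpm1 probes at -0.42 and -0.24 have overlapping arrays, and the Srf probes stand at -0.53 and -1.11.

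Srf was lower on every mimic array, and its probes disagreed on the size. The brighter probe, A_51_P100289, measured -2.45, -2.59 and -2.56 on the mimic arrays, against -2.21 and -1.79 on the scrambled arrays. The groups were apart by less than the gap between the scrambled arrays. The difference of -0.53 ± 0.17 was not called (adjusted p = 0.137, interval -0.96 to -0.10). The dimmer probe, A_55_P2149540 (chr17:46685306-46685365, mm9), had -3.89, -3.94 and -3.81 on the mimic arrays, compared with -2.98 and -2.54 on the scrambled arrays. Here the groups were far apart, and the difference of -1.11 ± 0.18 was called lower in the probe fit (adjusted p = 0.031). The changes of the probes differed by 0.58 without overlap (exact permutation p = 0.1, 0.4 after adjustment over the 8 pairs). Repeat scans of an array differed by up to 0.70 at the dimmer probe, the widest gap of the 14 probes, and in the first scans alone its call was lost.

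Across the 9 measured genes, 8 estimates were negative and 1 positive, with a median of -0.84, against -0.05 for all genes tested. The 5 genes called, Actc1, Acta1, Myl9, Tagln and Tpm2, were all lower and make up 55.6% of the 9. Of all genes tested, 2.34% were called lower and 2.8% higher, 5.15% in either direction. All 3 mimic arrays lay below both scrambled arrays in 8 of the 9, against 25.8% of all genes, and above both in 1 of the 9, against 19.8%. An unadjusted p under 0.05 was reached by all 9, against 14.1% of all genes on the lower and 11.2% on the higher side. By role the median difference was -1.50 for the striated actins, -0.06 for the smooth muscle actins, -1.21 for Tagln and Myl9, and -0.82 for the tropomyosins. Since the genes are a chosen list, these shares describe it and are not a test of it. In a population of cells, fewer cells making a gene and less of its RNA per cell cannot be told apart.

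**Figure D3:**
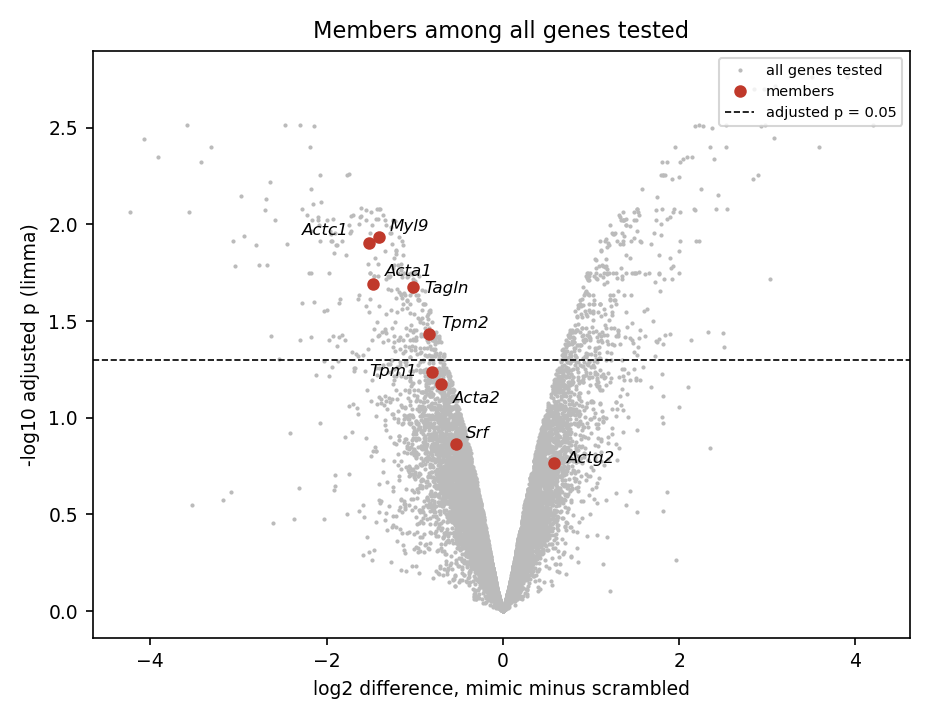
Log2 difference of mimic minus scrambled (x axis) and -log10 of limma's adjusted p (y axis) for all 13138 genes tested (grey) and the 9 measured genes of the list (red); the dashed line is an adjusted p of 0.05. Actc1, Myl9, Acta1, Tagln and Tpm2 lie above the line on the lower side, Tpm1 and Acta2 just under it, and Actg2 alone on the higher side.

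The calls rested on few arrays. Without any 1 of the mimic arrays none of the 9 genes was called by limma, although 7 or 8 kept an unadjusted p under 0.05. The 5 genes called with all arrays then had differences of -1.62 to -0.78 and adjusted p-values of 0.059 to 0.185. Leaving out a scrambled array left only 1 of them, so the spread of that group could not be measured. Across the fits with 1 array left out, Acta1 differed by -1.69 to -1.26 and Actg2 by 0.31 to 0.85. No difference of a measured gene changed its sign in any of the 18 other ways of processing that were run.

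**Figure D4:**
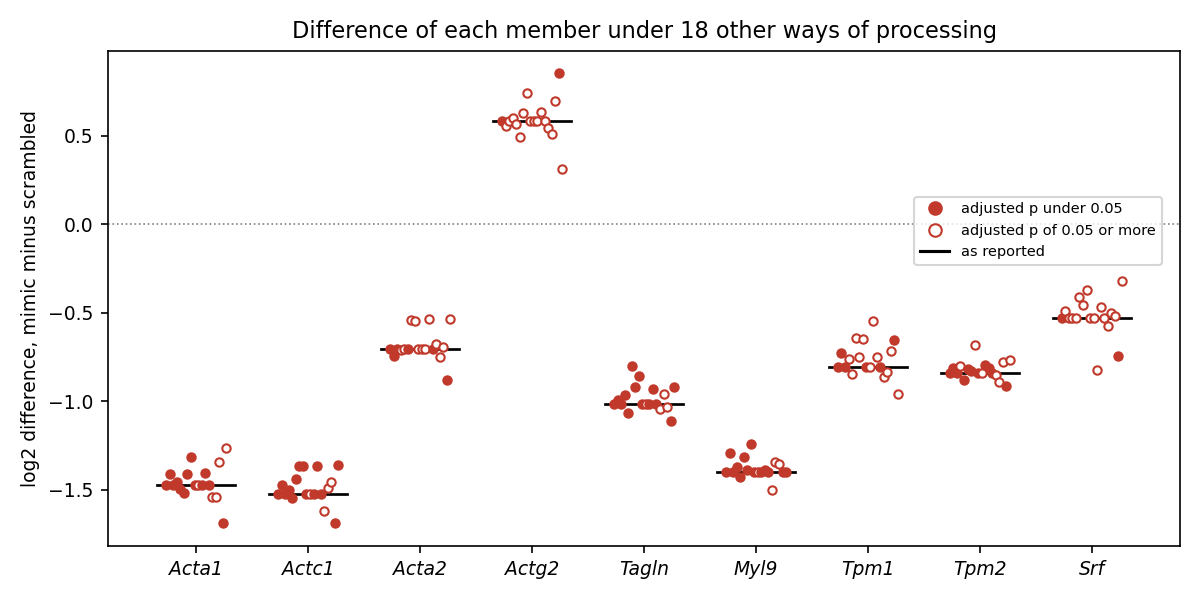
Log2 difference of mimic minus scrambled (y axis) of each of the 9 measured genes under 18 other ways of processing, filled where the adjusted p was under 0.05 and open otherwise, with a bar at the value reported. The 8 lower genes stay below 0 and Actg2 stays above it throughout, while filled and open points mix within most genes.

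Among other genes of the pathway, some striated muscle targets of SRF fell and cytoplasmic actin genes were not called. Of 8 striated muscle SRF targets, 4 were tested and 3 were called lower, against 2.34% of all genes tested. The list's median was -2.10, but Csrp3 had passed the filter mainly through the scrambled files. With probes above background in all files, only 2 genes of the list remained, both were called and their median was -1.47. Tnnc1, the slow and cardiac troponin C, differed by -2.17 ± 0.23 (adjusted p = 0.0095) and Ankrd1, a stretch-responsive ankyrin repeat protein, by -0.77 ± 0.13 (0.037). Csrp3, the muscle LIM protein, differed by -3.04 ± 0.39 (0.016), but was above background in only 1 of 6 mimic files and in all 4 scrambled files, so the size is not well measured. Ckm, the muscle creatine kinase, gave -2.25, -2.44 and -6.27 on the mimic arrays, compared with -1.47 and -1.79 on the scrambled arrays, with 1 mimic array far below the others, and was not called (-2.03 ± 1.21, adjusted p = 0.334). The list's median was -1.48 with a normexp background correction and -0.53 without a filter on dim probes, where limma called 0 (4 at an unadjusted p under 0.05). Without mimic array 1, 2 and 3 the calls numbered 1, 0 and 1, and without scrambled array 2 they numbered 1, while 3 or 4 kept an unadjusted p under 0.05.

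Of the 24 cytoskeletal SRF targets, 21 were tested and none was called by limma, and the median was -0.16. At an unadjusted p under 0.05, 4 were lower and 2 higher. Of all genes tested, 14.1% were lower and 11.2% higher at that level. The smallest p-values were those of Ccn2, a secreted matricellular protein (0.94 ± 0.21, adjusted p = 0.060), and Pdlim5, a Z-disc adaptor (-0.74 ± 0.17, adjusted p = 0.067). Mylk, the myosin light chain kinase, was above background in no file. None of the 9 tested immediate early SRF targets, of 11 listed, was called either, and their median was -0.42. When probes had to be above background in all files, only 4 of the 9 remained and the median was 0.07. Of the 9, 2 were lower at an unadjusted p under 0.05. The zinc finger factors Egr1 (-0.61 ± 0.15, adjusted p = 0.074) and Egr2 (-0.71 ± 0.20, adjusted p = 0.107) came nearest. The cofactors of SRF, 7 tested of 9, held no call and 1 gene higher at an unadjusted p under 0.05, with a median of 0.21. That gene was Hopx, a homeodomain-only protein that binds SRF (1.05 ± 0.22, adjusted p = 0.058). Its signal exceeded background in 5 mimic files of 6 and in 1 scrambled file of 4. Elk3, an ETS-family partner, was next (0.37 ± 0.15, adjusted p = 0.202).

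All 12 genes of the cytoplasmic actin cytoskeleton were tested and none had even an unadjusted p under 0.05, with a median of -0.10. The nearest were Tpm4, a non-muscle tropomyosin (0.30 ± 0.14, adjusted p = 0.234), and Myl12b, a non-muscle myosin light chain (-0.31 ± 0.14, adjusted p = 0.243). A few genes were singled out after their values were seen, as the closest relatives and partners of the listed ones. The cytoplasmic actins Actb and Actg1 differed by -0.11 ± 0.16 and -0.18 ± 0.14. The actin-regulated SRF partners Mrtfa and Mrtfb differed by 0.17 ± 0.16 and 0.21 ± 0.16, and none of these 4 was called, while Myocd was above background in no file. List medians this close to 0 have no settled sign, because scaling over all probes in place of those above background moved the median of all genes from -0.05 to 0.11.

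**Figure D5:**
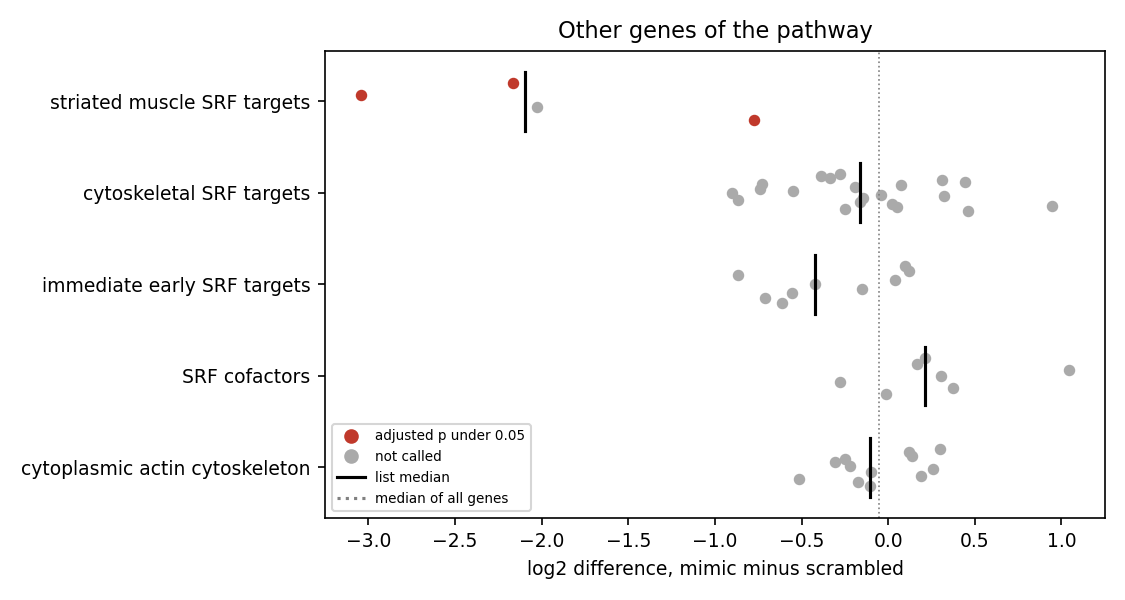
Log2 difference of mimic minus scrambled (x axis) for the tested genes of 5 lists (rows), red where limma's adjusted p was under 0.05, with a bar at the list's median and a dotted line at the median of all genes. The 4 striated muscle SRF targets lie between -3.04 and -0.77, and the 3 of them in red are the genes called.

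Markers of muscle differentiation, like the striated actins, were lower on all mimic arrays than on both scrambled arrays. Of 5 differentiating myocyte markers, Myog, Mymk, Mymx and Myh3 fell, against 2.34% of all genes tested, and Ckm was not called. Their summed linear signal, relative to the 75th percentile, was 5.30, 5.72 and 4.84 on the mimic arrays, against 17.4 and 17.8 on the scrambled arrays. All mimic arrays lay far below both scrambled arrays. For the 5 myoblast markers the sum was 3.96, 3.99 and 4.58 on the mimic arrays, compared with 6.18 and 9.76 on the scrambled arrays. Only 3 of these were tested, and none was called. All 3 were lower at an unadjusted p under 0.05, namely Myod1 (-1.26 ± 0.31), Des (-0.87 ± 0.29) and Cdh15 (-0.70 ± 0.16). Of all genes tested, 14.1% were lower and 11.2% higher at that level. The 6 fibroblast markers, of which Dcn, Col1a1 and Col1a2 were above background in every file, summed to 23.0, 23.6 and 21.3 on the mimic arrays, against 19.6 and 17.7 on the scrambled arrays. Of the 5 of these tested, 4 had positive estimates and were not called, with Col1a1 (0.55 ± 0.20) and Dcn (0.48 ± 0.19) at an unadjusted p under 0.05. Pdgfra was called lower (-0.96 ± 0.16, adjusted p = 0.030), but only 1 mimic file of 6 and 3 scrambled files of 4 had it above background, so its size is not well measured. No adipocyte or cardiomyocyte marker was above background in any file, and of the endothelial markers only Kdr was. The part of these cell states in the changes of the actins was not tested.

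Genes with the profile most like that of an actin were found by the root mean square distance between log2 levels over the 5 arrays. Each gene was first centred on its own mean over these arrays. Nearest to Actc1 were Frmpd1 (0.024), Dusp27 (0.075), Car2 (0.077) and Trim54 (0.081), and Acta1 ranked 7 (0.117). Nearest to Acta2 were Ccdc93 (0.030), Polr1a (0.034), Pdlim5 (0.037) and Poldip2 (0.040), none of which was called. With 5 arrays in 2 groups such a ranking mostly orders genes by the size of their difference.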

How the data were processed

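C2C12 cells were profiled on 1-colour Agilent arrays. The intensity values used are the processed signals of the scanner output, background-subtracted per the file headers, which name Feature Extraction 12.0.0.7 and build mm9; version 10.7.3.1 stands in the submitters' processing notes. The deposited value table, converted here to log2 units, was an alternative, and how it was normalized is not given in the sources used here.

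Control spots and flagged outliers were left out, no other spot was saturated, and spots of a probe were averaged. Signals were put on the log2 scale minus the 75th percentile that each file had over 13029 probes detected well above background everywhere. The scans of each position were averaged. A probe was kept (16786 were) if at least 4 of 10 files had it well above background, the brightest probe stood for its gene, and 13138 genes were tested with limma 3.58.1 in R 4.3.3 (3 residual and 2.93 prior degrees of freedom). Repeated scans and 5 arrays limit the precision. Gene names came from the array's accessions and the RefSeq table, and positions from the scanner files; exon and UTR annotation of mm9 was not used here. The fit was also run on simulated data, drawn separately for each gene and array. Such data hold no shift shared by the genes of an array, and the outcome is not reported here. Genes named beyond the 10 were those called in each list, or else the 2 with the smallest p, and the 4 nearest profiles. The 10 genes, the lists and the tests were chosen with earlier results of these data known. Alternatives changed the scaling, background correction, filter, probe choice, treatment of scans and the arrays used. A further list of genes is not reported here.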

Additional observations from a re-analysis of the deposited data

How the results depend on the processing

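Genes called numbered 676, but 4512 with the 10 files as separate arrays, 1950 with these and a replicate block, 1459 with scan as a block and position as a random block, 17 without a filter on dim probes, and 47 to 4350 with 1 array left out (47, 79 and 138 without mimic array 1, 2 and 3, 4350 and 570 without scrambled array 1 and 2). Of all calls 45.6% were lower, against 31.8% of 737 with the 75th percentile taken over all probes. The 5 genes of the list called lower became 8 with the 10 files as separate arrays, 0 of 9 without the filter (7 at an unadjusted p under 0.05), and 0 to 8 with 1 array left out. They were 7, with Acta2 and Tpm1 added, with scan as a block and position as a random block, with a trended and robust variance, and with the replicate block, but the replicate numbers do not pair the samples: same-numbered files correlated at 0.38, -0.04, -0.35 and -0.10. The change of striated minus smooth muscle actins was -1.68 to -1.20 with 1 array left out. Of 162 values of the 9 genes under 18 alternatives, 122 kept direction and call, 24 lost the call, 16 gained it and 0 reversed. Reversals of sign occurred outside these values, in Tpm1 probes that do not stand for the gene. These probes were A_55_P2032192 (-0.86 to 0.029 with 1 array left out) and A_55_P2187053 (-0.49 to 0.0049), both reversing without scrambled array 2. Why the calls moved between these ways of processing was not tested. Genes below background, such as Cnn1, cannot be compared.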
